A study of Mus musculus with 56 samples.

Results

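The 10 genes followed here are expressed by the Leydig cell of the testis and serve its hormone synthesis. They are 10 of the 18727 genes listed in at least 1 of the series' gene tables, and form a list of names: Lhcgr, Nr5a1, Scarb1, Star, Cyp11a1, Cyp17a1, Hsd3b1, Hsd3b6, Hsd17b3 and Insl3. The testis table listed all 10 among its 15960 genes. Bulk RNA was sequenced from testis, liver, muscle, cortex, hippocampus and cerebellum of mice that were wild type (WT) or lacked Fmr1, the gene for the RNA-binding protein FMRP (KO), at 3 libraries per genotype in each. Neuroblastoma cells of the mouse line N2a treated with siRNA against Fmr1 (siFmr1, 3 libraries) or a non-targeting siRNA (siNT, 2 libraries) supplied a further level and no test. The labels give each mouse sample as WT or Fmr1 KO and a tissue, with no strain, age or second allele, and do not say whether replicates were separate animals. P-values therefore measure the spread between these samples, which may be technical. Libraries of testis, liver, muscle and N2a were made by a service company, and those of brain with another kit on poly(A) RNA.

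Leydig cells lie between the seminiferous tubules and make testosterone. Luteinizing hormone binds its receptor, cyclic AMP rises, and the nuclear receptor SF-1 drives the genes of the pathway. Cholesterol, taken up in part from lipoproteins, is carried into the mitochondrion, cut to pregnenolone and then converted stepwise to testosterone. The cells also secrete INSL3, a peptide of the relaxin family that acts in testis descent. Within the testis these transcripts are known chiefly from Leydig cells, while SR-BI, the product of Scarb1, is also made by Sertoli cells and SF-1 is also present in them.

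Testis libraries held 13752391 to 15879775 counts, liver and muscle libraries 13230785 to 16168225, and brain libraries 26264368 to 41384652. In testis the targeted gene, Fmr1, was at 37.3, 33.9 and 33.1 CPM (counts relative to a common library size, scaled by TMM, the trimmed mean of M-values) in WT 1, 2 and 3 and at 8.41, 8.85 and 9.58 CPM in KO 1, 2 and 3, so each KO library matched its label. In the other tissues every KO library was also under every WT library for Fmr1. The fall was smaller in muscle, where the KO mean was 65.4% of the WT mean. There the adjusted p was 0.0734 by the edgeR quasi-likelihood test and 0.0351 by DESeq2. Elsewhere the KO mean was 25.6% (cortex) to 32.6% (liver) of the WT mean. The tissue label was checked with the spermatid genes Prm1, Prm2, Tnp1, Tnp2, Acrv1 and Spaca1, whose summed level was 11666 to 12822 CPM in the 6 testis libraries. Of 6 epididymis genes, none was listed in the testis table. Of 9 adrenal genes, which mark the other steroid-making gland, 6 were not listed, among them Cyp11b1, Cyp11b2 and Mc2r. The other 3 were listed. Of these, 2 passed a filter on low counts and summed to 10.9 to 15.6 CPM in WT and 10.5 to 13.1 CPM in KO.

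All 10 genes passed the filter on low counts in testis, and all 10 had a fitted log2 fold change (KO over WT) under 0, where 51.3% of the 15465 genes tested did. Of the 10, 5 were called lower in KO at an adjusted p under 0.05 (edgeR quasi-likelihood test, Benjamini-Hochberg adjustment over all genes tested): Hsd3b1, Nr5a1, Star, Cyp17a1 and Insl3. None was called higher. Of all genes tested, 4.27% were called and 2.28% were called lower. The median log2 fold change was -0.29 over the 10 genes and -0.01 over all genes. The sizes were small: the KO mean of the called genes was 70.0% to 82.3% of the WT mean. In bulk RNA, fewer Leydig cells and less of these transcripts per cell cannot be told apart. The calls depended on the tool, since DESeq2 called 2 of the 10, Insl3 and Nr5a1, beside 5.26% of the genes to which it gave an adjusted p. The authors' deposited table likewise gives adjusted p-values under 0.05 for Insl3 (0.00967) and Nr5a1 (0.0113) and above it for Hsd3b1 (0.152), Star (0.385) and Cyp17a1 (0.429).

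**Figure D1:**
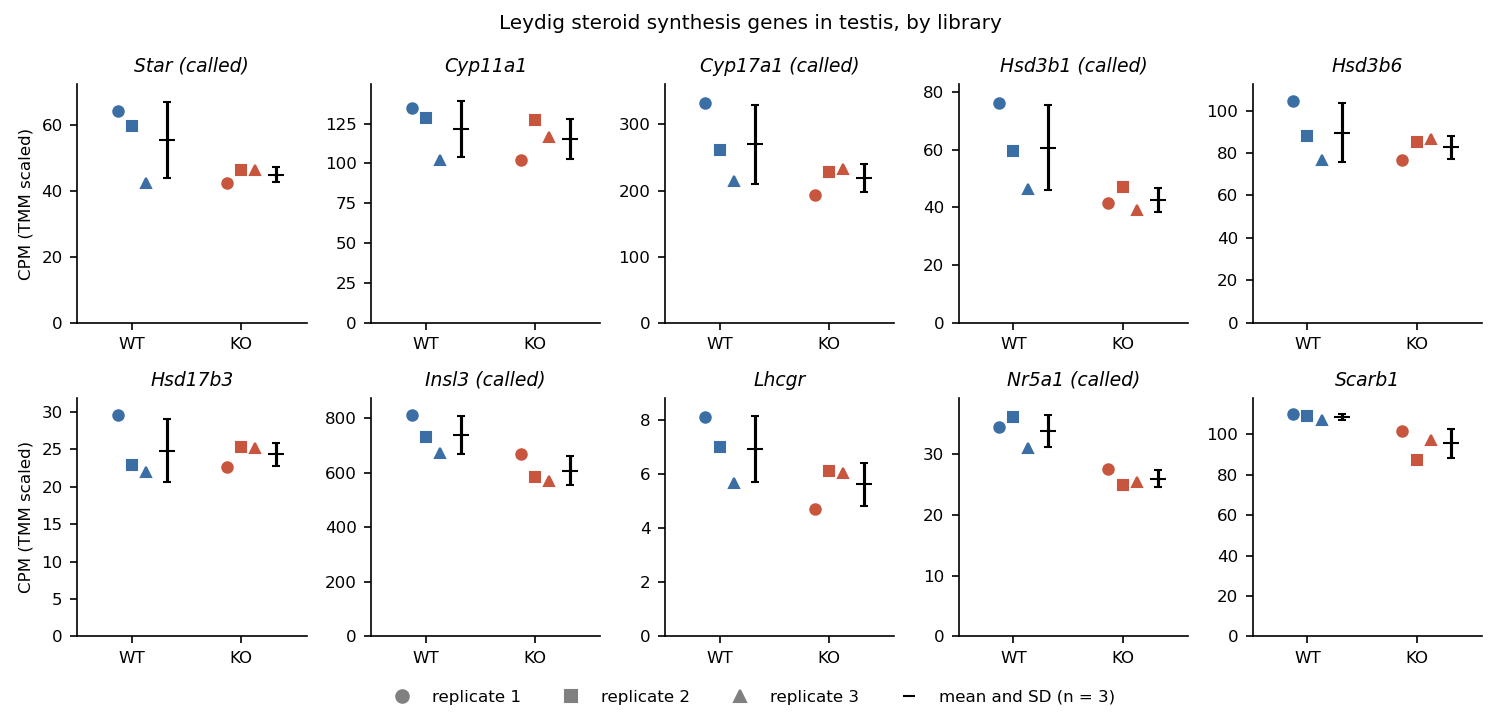
CPM of the 10 genes in each of the 6 testis libraries (vertical axes from 0; marker shape, replicate number; black dash and bar, mean and SD of 3 libraries). All KO points lie under all WT points for Insl3, Nr5a1 and Scarb1; in the other 7 genes WT 3 lies under at least 1 KO point.

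Lhcgr encodes the receptor for luteinizing hormone at the head of the pathway (GRCm38 chr17:88716481-88791990, minus strand). It was at 8.13, 7.01 and 5.69 CPM in WT 1, 2 and 3 and at 4.72, 6.11 and 6.07 CPM in KO 1, 2 and 3. WT 1 and WT 2 were above all KO libraries and WT 3 was within the KO range. Its log2 fold change of -0.30 ± 0.17 (SE) was not called (edgeR adjusted p = 0.361), and 64 to 117 counts per library stood behind it, the fewest of the 10 genes.

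Nr5a1 encodes SF-1, the nuclear receptor that binds the promoters of most steroid synthesis genes (chr2:38692656-38714542, minus strand). Its level was 34.4, 36.1 and 31.0 CPM in the WT libraries and 27.5, 24.9 and 25.5 CPM in the KO libraries. The groups did not overlap. The means were 33.8 ± 2.62 (SD, n = 3) and 26.0 ± 1.37 (SD, n = 3) CPM, a log2 fold change of -0.39 ± 0.09 (edgeR adjusted p = 0.0081). It was the 1 gene of the 10 still called when WT 1 was left out. Its call was lost without WT 2, KO 2 or KO 3 (edgeR adjusted p = 0.113, 0.0781 and 0.0553).

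Cholesterol entry is served by Scarb1 and Star. Scarb1 encodes SR-BI, the receptor that takes up cholesteryl esters from high-density lipoprotein (chr5:125277087-125341094, minus strand). It was at 110, 109 and 107 CPM in WT and at 102, 87.3 and 97.4 CPM in KO, so that the groups did not overlap. WT libraries differed little from each other, with an SD of 1.57 CPM. The log2 fold change of -0.19 ± 0.07 did not pass the adjusted threshold (edgeR adjusted p = 0.106).

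Star encodes the protein that moves cholesterol to the inner mitochondrial membrane, the regulated step of steroid synthesis (chr8:25806555-25815982, plus strand). Its level was 64.0, 59.7 and 42.4 CPM in WT and 42.2, 46.2 and 46.3 CPM in KO. WT 1 and WT 2 stood above the KO libraries, and WT 3 among them. The gene was called lower at a log2 fold change of -0.30 ± 0.09, close to the threshold (edgeR adjusted p = 0.0456). DESeq2 gave it the same fold change with a standard error of 0.19 and an adjusted p of 0.372.

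Cyp11a1 encodes the side-chain cleavage enzyme, which makes pregnenolone from cholesterol (chr9:58006411-58027023, plus strand). It was at 135, 128 and 102 CPM in WT and at 102, 127 and 117 CPM in KO, with overlapping groups. Its log2 fold change was -0.08 ± 0.08, with an approximate 95% interval of -0.23 to 0.07 (edgeR adjusted p = 0.651).

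Cyp17a1 encodes the 17-hydroxylase and lyase that turns progestagens into androgens (chr19:46667165-46673172, minus strand). Its level was 333, 261 and 215 CPM in WT and 194, 228 and 233 CPM in KO. WT 3 was lower than KO 2 and KO 3, and WT 1 was the highest of the 6. The gene was called lower, at -0.30 ± 0.08 on the log2 scale (edgeR adjusted p = 0.0269), while DESeq2 gave an adjusted p of 0.413.

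Hsd3b1 and Hsd3b6 encode related 3-beta-hydroxysteroid dehydrogenases, which form progesterone and androstenedione. The 2 genes lie close together on chromosome 3 (chr3:98852194-98859794 and chr3:98805504-98814443, minus strand). Hsd3b1 was at 76.0, 59.6 and 46.5 CPM in WT and at 41.5, 47.1 and 39.0 CPM in KO, where WT 3 and KO 2 were the only libraries out of order. It showed the largest fold change of the 10 genes, a fall of 30.0% in the mean and a log2 fold change of -0.51 ± 0.10 (edgeR adjusted p = 0.00133; DESeq2 adjusted p = 0.144). Hsd3b6 was at 104, 87.8 and 76.6 CPM in WT and at 76.6, 85.0 and 86.7 CPM in KO, and was not called (-0.11 ± 0.08, edgeR adjusted p = 0.469).

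The ratio of Hsd3b1 to Hsd3b6 within each library, a measure chosen after the values were seen, was 0.727, 0.678 and 0.606 in WT and 0.541, 0.554 and 0.450 in KO, without overlap. Reads of the pair may be shared between them. Over 1122 aligned coding bases (GENCODE M21 transcripts) they differed at 112 and were identical at 90.0%. Their longest identical run and the 60 coding bases where they differed most are shown because they bear on how reads could be divided. Capitals mark bases that differ, and positions count from the first coding base.
Both genes, coding bases 250 to 321: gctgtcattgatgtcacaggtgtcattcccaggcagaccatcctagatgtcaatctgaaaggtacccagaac
Hsd3b1, coding bases 94 to 153: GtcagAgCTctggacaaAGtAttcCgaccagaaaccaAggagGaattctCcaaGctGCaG
Hsd3b6, coding bases 94 to 153: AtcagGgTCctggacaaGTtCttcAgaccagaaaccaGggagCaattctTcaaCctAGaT

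The 72-base run cannot place a read that lies wholly inside it, whereas the second stretch holds 15 differences and can. How the counts divided such reads is not stated for these columns beyond a list of tools, so the separate levels of the pair are uncertain.

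Hsd17b3 encodes the enzyme of the last step, from androstenedione to testosterone (chr13:64058266-64089230, minus strand). It was at 29.6, 22.9 and 22.0 CPM in WT and at 22.6, 25.3 and 25.1 CPM in KO. All KO libraries were within the WT range. Its log2 fold change was -0.03 ± 0.10, with an approximate 95% interval of -0.23 to 0.17 (edgeR adjusted p = 0.927).

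Insl3 was the most abundant of the 10 transcripts (chr8:71689214-71690575, plus strand, within the annotated span of Jak3 on the same strand, so that reads of the shared stretch may belong to either gene). Its level was 811, 732 and 672 CPM in WT and 669, 585 and 568 CPM in KO. The groups did not overlap, though WT 3 and KO 1 were close together. The gene was called lower by edgeR (-0.28 ± 0.07, adjusted p = 0.00873) and by DESeq2 (adjusted p = 0.00986). Every KO library was under every WT library for 9.75% of all genes tested, and for Insl3, Nr5a1 and Scarb1 among these 10.

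The promoter of Insl3 is shown because Nr5a1, whose product SF-1 is known to bind sites of the type CAAGGNC, and Insl3 were the called genes of both tools. It holds that motif at 137 and at 57 bases before the RefSeq start. Capitals mark the matches, in 200 bases of GRCm38.p6, plus strand, that end 51 bases before that start.
Insl3, chr8:71689002-71689201: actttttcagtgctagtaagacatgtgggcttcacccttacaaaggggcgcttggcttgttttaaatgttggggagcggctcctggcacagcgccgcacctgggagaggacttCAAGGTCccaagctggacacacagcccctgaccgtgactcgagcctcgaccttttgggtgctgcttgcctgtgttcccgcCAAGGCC

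On either strand, CAAGGNC occurred within 250 bases before the start in 15% of the 32851 RefSeq promoters searched. RefSeq promoters were matched for 6 of the 10 genes, with 7 starts in all, and 1 of the 7 held it. Promoters of Star, Cyp17a1, Nr5a1 and Scarb1 were not searched. A match describes the letters of the window and was not tested as a binding site.

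Per length, the 10 genes spanned a wide range of levels in WT testis. Insl3 stood at 1185 ± 112 (SD, n = 3) RPKM (CPM per kilobase of annotated exon), followed by Cyp17a1 at 97.4 ± 21.5, Hsd3b6 at 49.8 ± 7.77, Hsd3b1 at 32.7 ± 7.97 and Cyp11a1 at 25.3 ± 3.63. Hsd17b3 was at 17.8 ± 2.99, Star at 13.5 ± 2.78, Scarb1 at 12.8 ± 0.18, Nr5a1 at 7.98 ± 0.62 and Lhcgr at 0.91 ± 0.16. Insl3 and Cyp17a1 led and Nr5a1 and Lhcgr were last on every length used. Genes from Hsd3b6 to Scarb1 in this order changed places with the length. In the authors' deposited TPM, a unit per transcript length, Cyp11a1 stood next after Cyp17a1 at 131 TPM, and Scarb1 at 82.0 TPM was above Hsd3b1 at 62.3 TPM. On the RPKM scale, Star and Scarb1 did not differ beyond their spread.

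The 10 genes varied together across libraries, and much of that variation lay among the WT samples. As the mean of log2 deviations of the 10 genes from their 6-library means, WT 1 stood at 0.32, WT 2 at 0.14 and WT 3 at -0.10. The KO libraries stood at -0.18, -0.08 and -0.10. WT 3 was thus at the level of the KO libraries in this mean. WT 1 held the highest value of the 6 libraries for 9 genes and WT 2 for Nr5a1. The highest WT library was 1.64 times the lowest for Hsd3b1, 1.55 times for Cyp17a1, 1.51 times for Star and 1.03 times for Scarb1. Over the 6 libraries, Pearson's r between pairs of the 10 genes ranged from -0.04 to 0.97 with a median of 0.74, a description that mixes the genotype difference with spread inside each genotype.

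**Figure D2:**
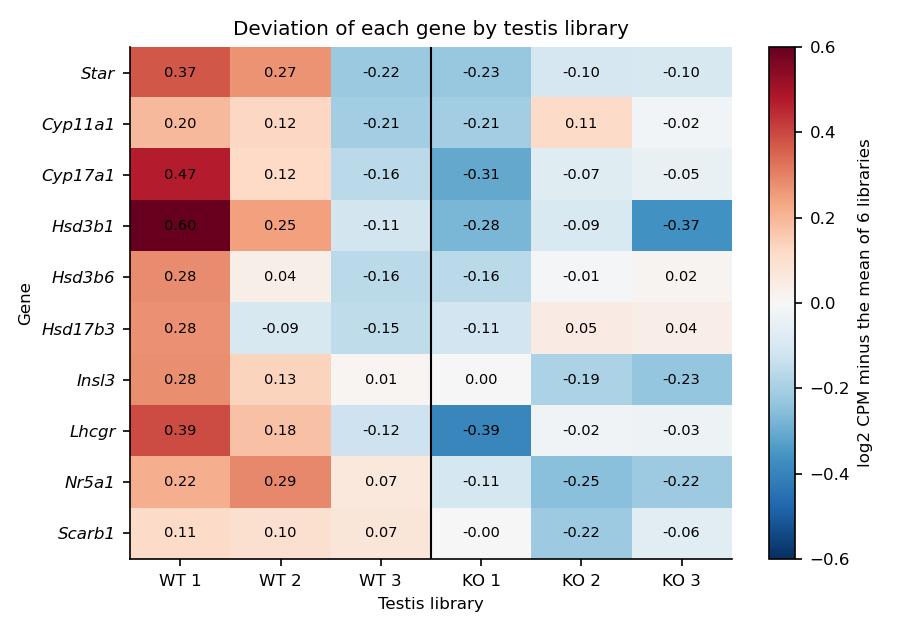
Deviation of log2 CPM of each gene (rows) in each testis library (columns) from that gene's mean over the 6 libraries; red is higher, blue lower. WT 1 is the highest library for 9 of 10 genes, and WT 3 is under 0 for all but Insl3, Nr5a1 and Scarb1.

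Leaving out 1 library at a time showed how far the calls rested on single samples. Without WT 1, 1 of the 10 genes was called (Nr5a1), and the fold changes of Cyp11a1, Hsd3b6 and Hsd17b3 came out above 0 (0.0018, 0.0089 and 0.12 on the log2 scale). Without WT 2 or without KO 2, 1 gene was called, in each case Hsd3b1. Without WT 3, the 5 genes Star, Cyp17a1, Hsd3b1, Insl3 and Nr5a1 were called. Without KO 1, the 4 genes Hsd3b1, Insl3, Nr5a1 and Scarb1 were called, and Cyp11a1 and Hsd17b3 came out above 0. Without KO 3, Cyp17a1 and Hsd3b1 were called. The fold changes of the other 7 genes stayed under 0 in all 6 of these fits. The number of genes called in the whole table also changed, from 661 with all libraries to between 173 and 1256.

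**Figure D3:**
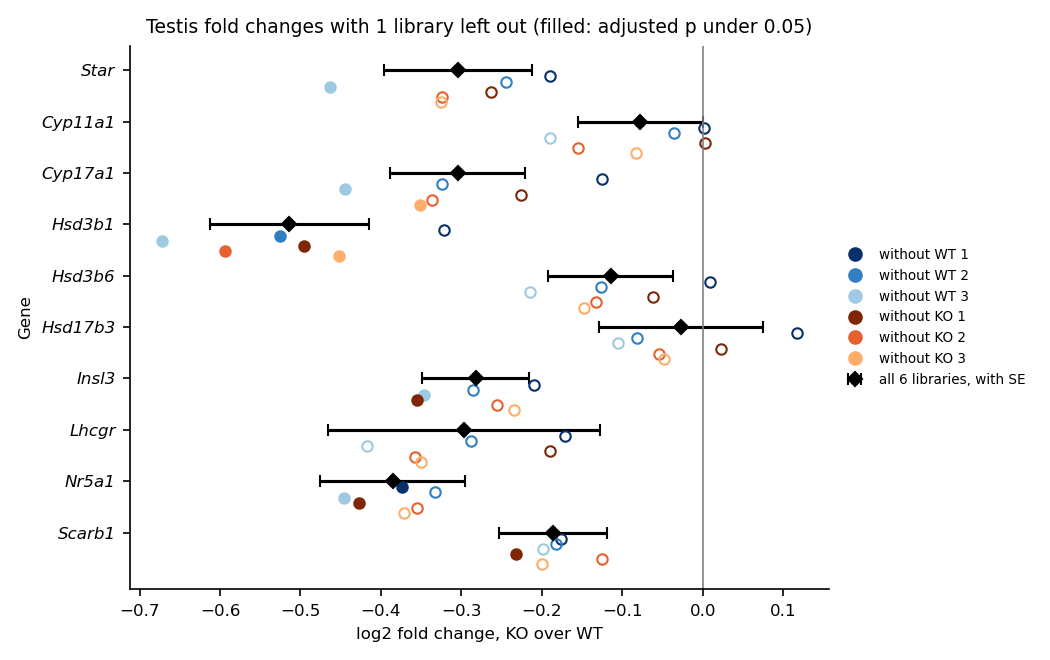
Log2 fold change (KO over WT) of each gene in testis with all 6 libraries (black diamond, bar 1 SE) and with each library left out (circles, filled where the adjusted p was under 0.05). Hsd3b1 is filled in 5 of 6 and Cyp11a1, Hsd3b6, Hsd17b3 and Lhcgr in 0 of 6.

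Other genes of the pathway gave few calls, beside 4.27% of all genes tested. At that share a list of this size would hold few calls or none. Such counts, here and in the lists below, are therefore not read as a result. Among 25 partners of the steroid pathway, such as redox partners, reductases and 17-beta-hydroxysteroid dehydrogenases, 19 were tested, 1 was called lower and the median log2 fold change was 0.00. The called gene was Tspo, for a cholesterol-binding protein of the outer mitochondrial membrane, at 6.03 ± 0.56 (SD, n = 3) CPM in WT and 3.69 ± 1.55 in KO (-0.72 ± 0.21, edgeR adjusted p = 0.038). No partner was called with total-count scaling, with DESeq2, or when WT 1, WT 2, WT 3, KO 2 or KO 3 was left out, and 2 were called without KO 1. Of 18 genes of cholesterol supply, 0 were called by edgeR or DESeq2, 2 had an unadjusted edgeR p under 0.05, and 12 had a fold change under 0, with a median of -0.08. Lipe, the hormone-sensitive lipase that frees stored cholesterol, was at 324 ± 16.7 CPM in WT and 303 ± 10.9 in KO. Of 20 tested genes of luteinizing hormone signalling and Leydig transcription factors, 0 were called by edgeR or DESeq2, 7 had an unadjusted edgeR p under 0.05, and 15 had a fold change under 0, with a median of -0.07. Without KO 1, 1 of them was called. Pde8a, a phosphodiesterase that breaks down cyclic AMP, was at 279 ± 19.4 CPM in WT and 311 ± 9.62 in KO (edgeR adjusted p = 0.153). Prkar2a, a regulatory subunit of protein kinase A, was at 273 ± 12 and 269 ± 10.4 CPM.

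Further markers of Leydig cells moved in both directions. Of 10 tested, 5 were called, 4 of them lower. Ptgds, the prostaglandin D synthase, was at 135 ± 13.7 (SD, n = 3) CPM in WT and 75.7 ± 7.10 in KO, a log2 fold change of -0.84 ± 0.07 (edgeR adjusted p = 3.55e-11) that was larger in size than that of any of the 10 steroid synthesis genes. Fabp3, a fatty acid carrier, fell from 66.4 ± 12.8 to 48.5 ± 2.6 CPM (-0.45 ± 0.09). Vcam1, an adhesion molecule, fell from 78.1 ± 11.9 to 63.1 ± 2.21 CPM (-0.31 ± 0.08), and Ephx1, the microsomal epoxide hydrolase, from 99.7 ± 9.23 to 84.4 ± 4.17 CPM (-0.24 ± 0.07). Klk1b27, a kallikrein-family protease gene named after its values were seen because it was the exception, rose from 15.8 ± 0.97 to 22.7 ± 6.19 CPM (0.53 ± 0.12, edgeR adjusted p = 0.0076). It belongs to a family of near-identical genes, so its reads may be shared. DESeq2 called 3 of the 10 markers, and edgeR called 1 without WT 1 and 3 without KO 3.

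Marker genes of other testis cells moved beside these results, and their part in them was not tested. The summed level of the 10 steroid synthesis genes was 1320 to 1706 CPM in WT and 1244 to 1282 CPM in KO. Insl3 carried that separation: without it the sums were 895, 772 and 648 CPM in WT 1, 2 and 3 and 613, 678 and 675 CPM in KO 1, 2 and 3, and WT 3 was under KO 2 and KO 3. The summed level of 15 Sertoli cell genes was 1799 to 2265 CPM in WT and 1637 to 1762 CPM in KO, without overlap and highest in WT 1. Clu, named after its values were seen, held much of that sum, at 1069 ± 121 CPM in WT and 922 ± 39.4 in KO. The sum without Clu is not given here. Of these 15, 14 had a fold change under 0, with a median of -0.21, and 2 were called lower. They were Amhr2, the receptor for anti-Mullerian hormone, which Leydig cells also express (-0.37 ± 0.07, edgeR adjusted p = 0.00208), and Inha, the inhibin alpha subunit, also known from both cell types (-0.29 ± 0.08, edgeR adjusted p = 0.0231). Of 5 androgen-responsive Sertoli genes, 1 was called lower, Tubb3, a beta-tubulin, at -0.35 ± 0.10 (edgeR adjusted p = 0.0259). Rhox5 stands in both Sertoli lists. The 2 calls among the Sertoli genes became 0 without WT 1, 1 without WT 2, KO 2 or KO 3, and 6 without WT 3, and DESeq2 called 1. Tubb3 was not called without WT 1, WT 2, KO 2 or KO 3.

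Interstitial neighbours of the Leydig cells, namely peritubular myoid, macrophage and endothelial genes, gave 0 calls by edgeR or DESeq2 and 0 unadjusted edgeR p-values under 0.05. Summed levels were 98.5 to 114 CPM in WT and 96.9 to 112 in KO for 6 peritubular myoid genes, 71.4 to 84.2 and 73.5 to 84.6 for 8 macrophage genes, and 36.5 to 39.5 and 37.6 to 42.4 for 7 endothelial genes. Acta2, the smooth muscle actin of myoid cells, was at 37.9 ± 0.84 CPM in WT and 39.2 ± 2.24 in KO, and Mrc1, the mannose receptor of macrophages, at 39.9 ± 4.10 and 39.6 ± 2.45. Blood genes, of which 0 of 4 were called by edgeR or DESeq2 (2 at an unadjusted edgeR p under 0.05, and 1 called without WT 1 or KO 3), summed to 44.8 to 56.2 CPM in WT and 40.6 to 53.4 in KO. Among germ cells, spermatocyte genes summed to 951 to 1007 CPM in WT and 1047 to 1187 in KO. Sycp1 (0.35 ± 0.07) and Hormad1 (0.30 ± 0.07), both for proteins of meiotic chromosomes, were called higher. Tnp1 and Tnp2, the transition proteins of elongating spermatids, were called lower (-0.28 ± 0.06 and -0.29 ± 0.07). Each germ cell pair of calls became 1 (spermatocyte) or 0 (spermatid) without WT 2, KO 2 or KO 3. Of 7 spermatogonial genes, 0 were called by edgeR or DESeq2 and 2 had an unadjusted edgeR p under 0.05. Of them, 1 was called without WT 3 and 2 without KO 1.

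**Figure D4:**
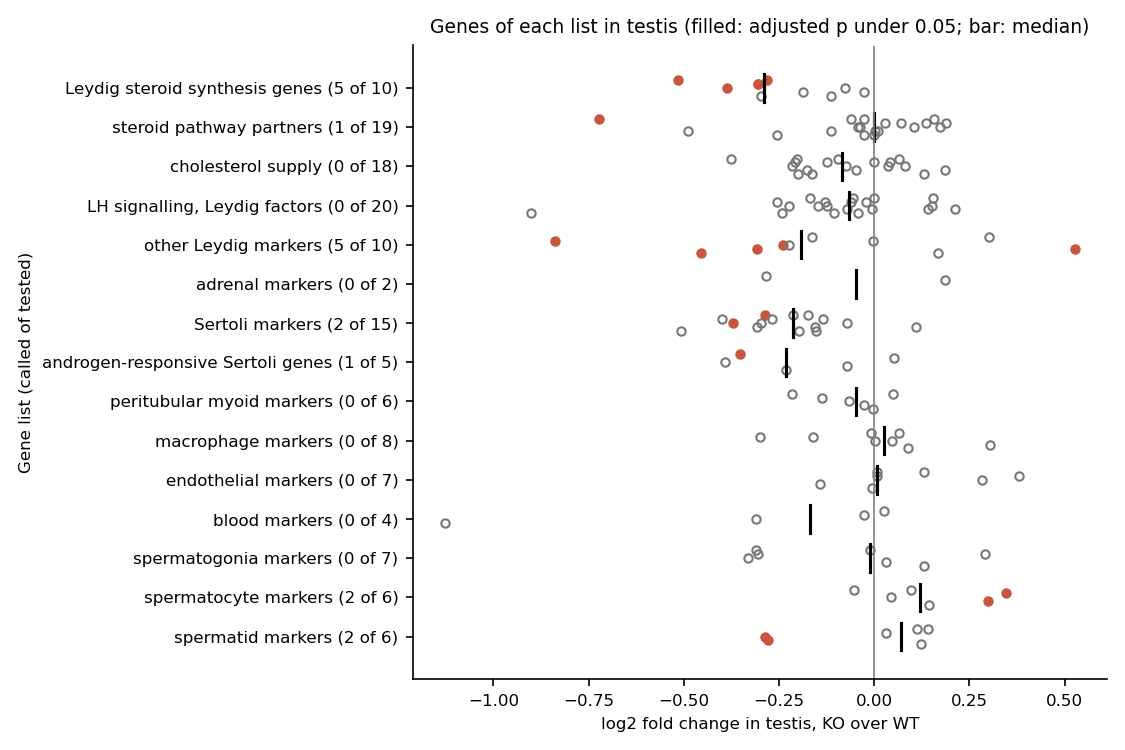
Log2 fold change (KO over WT) in testis of every tested gene of each list (circles, filled where the adjusted p was under 0.05; black bar, median of the list). The steroid synthesis genes, the other Leydig markers and both Sertoli lists have medians of -0.29, -0.19, -0.21 and -0.23; the partners of the steroid pathway have a median of 0.00.

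The 5 genes whose testis pattern was most like the mean of the 10, by Pearson's r over the 6 libraries among 15455 other genes, were Sept6 (0.997), a septin, Fgfrl1 (0.995), an FGF receptor-like protein, Atp8b2 (0.994), a phospholipid flippase, Spata13 (0.993), a guanine nucleotide exchange factor, and Itgb5 (0.990), an integrin subunit. None of these 5 was called. In all, 104 genes reached an r of at least 0.95.

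Outside the testis, most of the 10 genes were scarce or not listed. Hsd3b1, Hsd3b6, Hsd17b3, Insl3 and Nr5a1 stood in the testis table alone. Tables were scaled separately, so levels across tissues are set side by side without a test, and brain libraries came from another kit. Star had a median of 46.2 CPM in testis (42.2 to 64.0 over 6 libraries), 2.93 CPM in cerebellum (2.55 to 3.58), 2.74 in liver (1.58 to 4.2), 2.11 in muscle (1.84 to 2.66), 1.81 in cortex (1.32 to 2.23) and 1.48 in hippocampus (1.23 to 1.63). Testis stood 15.7 times above the next tissue, and from cerebellum down each neighbour in this order overlapped the next. Cyp11a1 had a median of 122 CPM in testis, 2.08 in cortex (1.78 to 2.51), 1.07 in hippocampus (0.86 to 1.48) and 0.75 in cerebellum (0.60 to 1.11), of which the last pair overlapped. Cyp17a1 had a median of 231 CPM in testis and 5.78 in liver (2.43 to 9.14). Lhcgr had 3 to 15 counts per library in the brain regions and was not tested there.

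Scarb1 departed from this order. Liver led with a median of 162 CPM (140 to 214 over 6 libraries), followed by testis at 104 CPM (87.3 to 110), muscle at 39.2 (25.6 to 43.7), hippocampus at 23.6 (21.7 to 25.3), cortex at 17.9 (14.6 to 18.4) and cerebellum at 7.64 (6.20 to 8.58). No neighbours in this order overlapped, though muscle and hippocampus came within 1 CPM. In the authors' deposited TPM this pair overlapped and changed places, at 15.7 to 31.8 TPM in muscle and 25.3 to 30.0 TPM in hippocampus, and muscle also overlapped cortex (18.0 to 22.1 TPM). N2a cells held 158 to 247 CPM of Scarb1 over 5 libraries, scaled to total counts. Star was at 20.2 and 4.18 CPM in the siNT libraries of N2a and at 13.1, 7.84 and 5.28 CPM in the siFmr1 libraries, all within the range of the controls.

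None of the listed genes was called between KO and WT outside the testis by edgeR, where 0.411% of genes tested were called in liver, 4.04% in muscle, 0.0203% in cortex, 0.209% in hippocampus and 0.226% in cerebellum. DESeq2 called none of them either. At an unadjusted p under 0.05 stood Scarb1 in liver and Cyp11a1 in cerebellum. Scarb1 in liver was at 214, 174 and 184 CPM in WT and at 151, 145 and 140 CPM in KO. The log2 fold change of Scarb1 in liver was -0.39 ± 0.12 (edgeR unadjusted p = 0.011, adjusted p = 0.258). In muscle its fold change was 0.25 ± 0.16, in cortex -0.17 ± 0.09, in hippocampus -0.05 ± 0.08 and in cerebellum -0.13 ± 0.13. Cyp11a1 in cerebellum was at 0.80, 1.11 and 1.05 CPM in WT and at 0.60, 0.69 and 0.69 CPM in KO, from 17 to 43 counts per library (-0.59 ± 0.24, edgeR unadjusted p = 0.0304, adjusted p = 0.508). Star had fold changes between -0.43 ± 0.39 in liver and 0.17 ± 0.25 in cortex. The approximate 95% interval of Star held its testis value of -0.30 in each of these 5 tissues.

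Deposited splicing tables gave a second readout of the same genes, read from reads across exon junctions. Each table compares a first and a second set of 3 values and does not say which genotype a set is, so no genotype is assigned here. In testis, 20 skipped exon events lay in 6 of the genes, Cyp11a1, Hsd3b6, Hsd17b3, Lhcgr, Nr5a1 and Scarb1, and 1 had a deposited false discovery rate (FDR) under 0.05, where 1.04% of all 21748 testis skipped exon events did. It was an Lhcgr exon (chr17:88767253-88767327) at FDR 0.0468, with inclusion levels of 0.75, 0.764 and 0.903 in the first set and 0.817, 1.0 and 1.0 in the second. Skipping rested on 8, 7 and 2 reads and on 3, 0 and 0 reads, and a second event of the same exon with other neighbouring exons had FDR 1. Among 7 events of mutually exclusive exons, 2 passed, 1 in Lhcgr (FDR 0.0122) and 1 in Cyp11a1 (FDR 0.0139), in a table where 16.5% of 3549 events passed. Only the FDR of these events was used here, and with 7 events nothing is read from the count. Exons of Cyp11a1 and Hsd17b3 were included at 0.961 or more in every value.

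Scarb1 had an exon whose use differed widely between tissues. The exon (chr5:125281105-125281233, minus strand) is exon 12 of 13 in the annotated transcript that holds it, lies wholly in the coding sequence and ends with its stop codon. Without it, translation goes on into the last exon and gives SR-BII, a known form of the receptor with another cytoplasmic tail. It is shown with the stop codon in capitals because that tail is what the splicing choice alters.
Scarb1 exon 12: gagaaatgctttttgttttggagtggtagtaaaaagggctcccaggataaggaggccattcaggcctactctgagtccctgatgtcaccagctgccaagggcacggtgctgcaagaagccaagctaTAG

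In testis the inclusion level of the exon was 27.3%, 30.0% and 32% in the first set and 35.9%, 40.2% and 32.3% in the second, from 187 to 326 junction reads per library. The sets did not overlap but came within 1 percentage point, and the deposited FDR was 0.532. In liver it was 70.8% to 80.9% over 6 libraries (median 74.9%), and in muscle 75.4% to 86.4% (median 82.0%). All 6 testis values were thus under all 12 values of these tissues, whose libraries came from the same service. Cortex stood at 10.0% to 22.2% (median 15.1%) and hippocampus at 6.67% to 11.1% (median 9.35%), from 11 to 35 reads per library. Cerebellum stood at 25.0% to 62.5% (median 51.5%) from 5 to 13 reads per library, too few to place it firmly. No table gave the event a deposited FDR under 0.05.

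**Figure D5:**
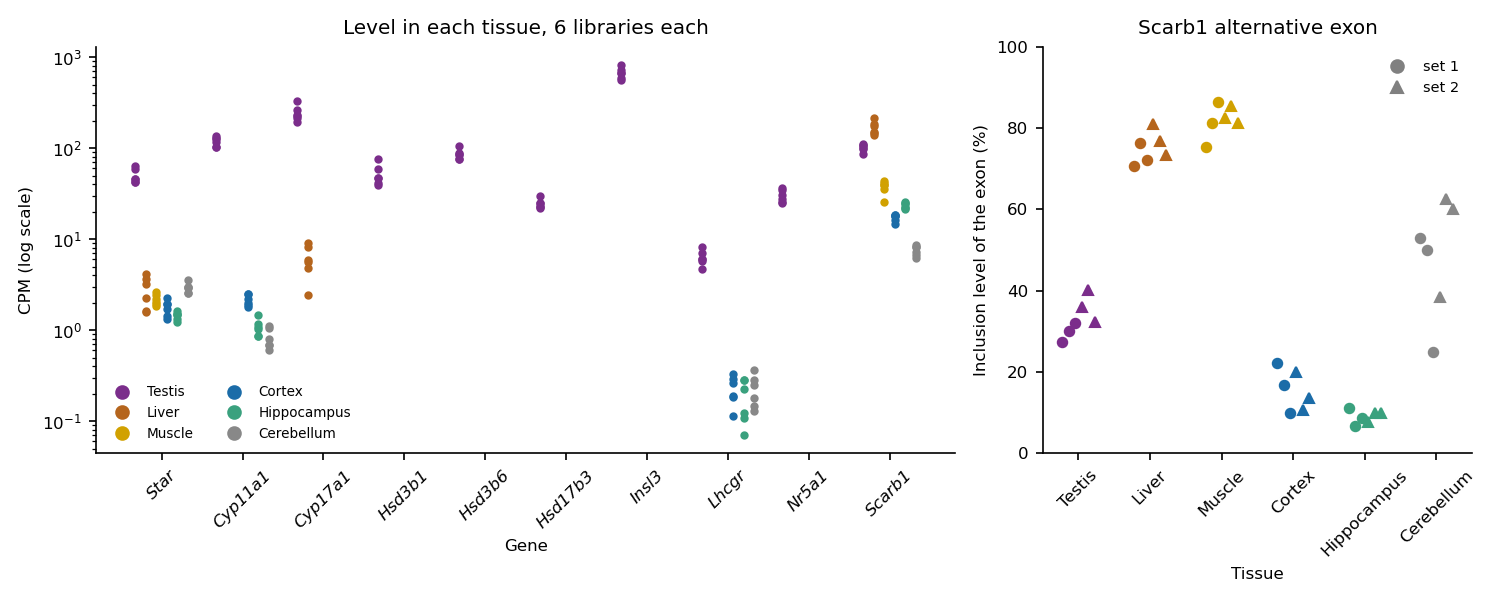
Left, CPM (log axis) of the 10 genes in each library of each tissue whose table lists them; right, inclusion level (%) of exon 12 of Scarb1 in each library by tissue, circles and triangles for the first and second deposited set. Scarb1 is highest in liver and the other genes in testis; the exon is included at 27.3% to 40.2% in testis and at 70.8% to 86.4% in liver and muscle.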

How the data were processed

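For each sample, the gene tables gave whole-number read counts and TPM, per the file headers, beside log2 fold changes and adjusted p-values that the authors deposited. Per the submitters' processing notes, tools included Trimmomatic 0.39, Bowtie2 2.3.5, STAR 2.6.1, RSEM 1.3.1 and DESeq2 1.16.1 on GRCm38. Their roles are not given. The splicing tables hold other values, namely junction reads and inclusion levels, with p-value and FDR columns, as deposited by the authors. Muscle columns marked GA, the only complete set of 3 per genotype, were taken as the labelled muscle samples. Another 4 columns of per-sample values matched no label and were not used.

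Counts of each tissue were filtered with filterByExpr, TMM-scaled and tested with the edgeR 4.0.16 quasi-likelihood test (R 4.3.3), on its 6 libraries. DESeq2 1.42.0 was an alternative. Calls needed an adjusted p under 0.05 (Benjamini-Hochberg, over all genes tested). The code was tested on simulated data. The genes and lists were chosen with earlier results of these data known. Named genes were the 10 members, Fmr1, up to 4 called genes of each other list by level, or its top 2 by level where none was called, and the 5 genes most alike in pattern. A gene that this rule selects is not reported here. Lengths were the union of GENCODE M21 exons. The lowest testis count of the 10 genes was 64, and errors cover the spread between libraries. Other settings tried were another scaling, no filter, a replicate block, each library left out, and other lengths. Same-numbered libraries of the 2 genotypes did not deviate together in testis.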

Additional observations from a re-analysis of the deposited data

Results flagged for a closer look

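Cyp11a1 stood apart in direction between 2 brain regions. Every KO library of cortex lay above every WT library (2.49, 2.18 and 2.51 CPM against 1.78, 1.89 and 1.97 CPM), a log2 fold change of 0.35. Every KO library of cerebellum lay under every WT library, a log2 fold change of -0.59. Neither was called, and the share of all genes that separated in this way in these regions is not given here. Cyp11a1 was flagged because these 2 fold changes differed, so the p-values below rest on the values that picked it and are descriptive. The difference between the 2 effects, as an interaction term over the 12 libraries, was -0.93 ± 0.27 (SE) on the log2 scale. Its edgeR unadjusted p was 0.00407 and its adjusted p 0.222 over 15316 genes, which misses the threshold. For this term, 0 genes were called. From 17 to 81 counts per library stood behind these values.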

How the results depend on the processing

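The 5 testis calls among the 10 genes became 2 with DESeq2 and ranged from 1 to 5 with single libraries left out, and the 661 calls among all genes ranged from 173 to 1256. With a replicate block, 3 of the 10 (Hsd3b1, Insl3 and Nr5a1) and 377 genes in all were called. Replicate numbers gave no pairing: same-number correlations in testis ran from -0.04 to 0.00, and 0 of 6 libraries correlated best with their own number, so a call lost under the block is not read as a weaker effect. With 1 library left out, log2 fold changes changed sign for Cyp11a1 (-0.19 to 0.0026), Hsd3b6 (-0.22 to 0.0089) and Hsd17b3 (-0.11 to 0.12) in testis and for Cyp17a1 in liver (-0.23 to 0.65). The cause was not tested. Star lost its call with total counts alone (adjusted p = 0.0668). DESeq2 size factors and no filter on low counts changed no call among the 10. Of 110 recomputed testis fold changes, 81 kept direction and side of the threshold, 23 lost the call, 1 gained it (Scarb1 without KO 1) and 5 changed sign. In the other tissues no setting called any of the genes. Low counts limit Lhcgr in testis and Star and Cyp11a1 in brain.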
